A study of Homo sapiens with 2 samples.

Results

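The genes described here encode the enzymes that cut extracellular matrix and shed proteins from the cell surface, together with inhibitors that hold those enzymes in check and surface proteins that bind or induce them. A list of 33 genes was read from 5 families and 2 single genes: matrix metalloproteinases (MMP), ADAM and ADAMTS metalloproteases, the plasminogen activator system, the tissue inhibitors of metalloproteinases (TIMP), the MMP inducer BSG and the membrane-anchored inhibitor RECK. Of the 33, 32 had at least 1 probe set annotated to a single gene symbol, and 26 were measured. SERPINB2 was not analysed here. Each gene was represented by its brightest probe set, and it counted as measured when the higher of its 2 values reached 5.37 on the log2 scale, the median over all probe sets. That level is a convention and not a detection limit. Over the whole series 19775 genes were represented and 13311 were measured.

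The study asked which genes are regulated by miR-203 in MDA-MB-231, an established human breast cancer line that lacks hormone receptors and has mesenchymal features. A derivative stably infected with a virus for miR-203 overexpression was compared with a derivative infected with the empty control virus, and both were grown in DMEM with 10% FBS under 5% CO2. Each line was hybridised to 1 Affymetrix array from 6 µg of total RNA, and the labels do not say whether a line was a clone or a pool. All differences are log2 values of the miR-203 line minus log2 values of the empty-vector line. With 1 array a line there was no replicate error and no test, so a difference holds for these 2 RNA samples and includes culture, RNA preparation and hybridisation.

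The arrays had medians of 5.38 and 5.38, and the differences of all measured genes had a median of 0.013 and an SD of 0.22. Of 8 genes listed as high in MDA-MB-231, 7 were measured, among them VIM, CD44, EGFR and AXL, and SPARC lay under the level on both arrays. Among 7 genes listed as low in this line, PGR, CDH1 and KRT5 lay under the level, while ESR1, ERBB2, EPCAM and GATA3 lay above it. Fibroblasts also make many of these proteases. Of 7 fibroblast markers 4 were measured, and the summed log2 level of those 4 was 27.4 with the empty vector and 26.8 with miR-203. A sum of log2 values is not an amount of message, and the 4 genes differed in sign. THY1 read 7.80 and 6.96, a difference of -0.84, and PDGFRB was at 0.35, while DCN and COL1A1 were at -0.12 and -0.0039. COL1A2, COL3A1 and LUM lay under the level on both arrays, and the part of fibroblast markers in the results was not tested. No probe set was named for miR-203 (0 of 54675), so overexpression was not checked on the arrays.

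A microRNA guides Argonaute proteins to messenger RNAs that pair with its seed, the short stretch near its 5′ end, and the usual outcome is a modest loss of the target message. MMPs and ADAMTS enzymes cleave collagens, laminins, fibronectin and proteoglycans, ADAMs release growth factors and receptors from the membrane, and urokinase bound to its receptor turns plasminogen into plasmin. Secreted and membrane-bound proteases of all these kinds are known for their part in the invasion of breast cancer cells. The reagent is shown here by the mature miR-203a-3p of RefSeq (GRCh38.p14, plus strand, chr14:104117469-104117490), with the seed, bases 2 to 8, in capitals. The labels name only miR-203, without an arm.

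hsa-miR-203a-3p: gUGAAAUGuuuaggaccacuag

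The perfect match to this seed in a message reads CAUUUCA, and 3′ UTRs were not searched for it. No other mature microRNA name in the table had this seed.

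MMP1 was lower in the miR-203 line by a wide margin, and no other measured gene of the list differed by as much as 1.5-fold by its brightest probe set. A dimmer probe set of ADAMTS1 did, at -0.80. MMP1 encodes interstitial collagenase, which makes the first cut in fibrillar collagen. Its probe set read 9.69 with the empty vector and 7.62 with miR-203, both well above the level for a measured gene. The difference was -2.07, or 4.18-fold lower, and only 3 of the 13311 measured genes lay further down. When the measured genes were divided into 4 bins of equal size by mean level, the middle 95% of the bin that holds MMP1 spanned -0.35 to 0.47. Since MMP1 has 1 probe set on the array, no further probe set could be set beside it. In bulk RNA, fewer cells that make a message and less message per cell cannot be told apart.

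Among the 26 measured genes, 1 was at least 2-fold lower and 0 were at least 2-fold higher, where 0.27% and 0.105% of all measured genes passed the same thresholds. At 1.5-fold the counts were again 1 and 0, against 1.08% and 0.721% of all genes. By sign alone 18 of the 26 were below 0, 7 were above it, and 1 had the same value on both arrays. Of all measured genes 45.8% were below 0 and 52.1% above. The median difference of the list was -0.086, and it was -0.081 without MMP1. When probe sets of the _x_at and _s_at kinds, which can match several transcripts, were left out, 18 of the genes were measured, 9 of them lay below 0 and the median was -0.0083. The 8 genes lost in this way were all below 0 in the main comparison, and MMP11, MMP15 and RECK had the opposite sign by the brightest probe set left. Of the 26, 22 lay inside the middle 95% of their bin and 4 (15.4%) outside, where 5.05% of all measured genes were outside by construction. The 4 were MMP1, MMP14 and ADAMTS1 on the lower side and ADAM9 on the higher side.

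**Figure D1:**
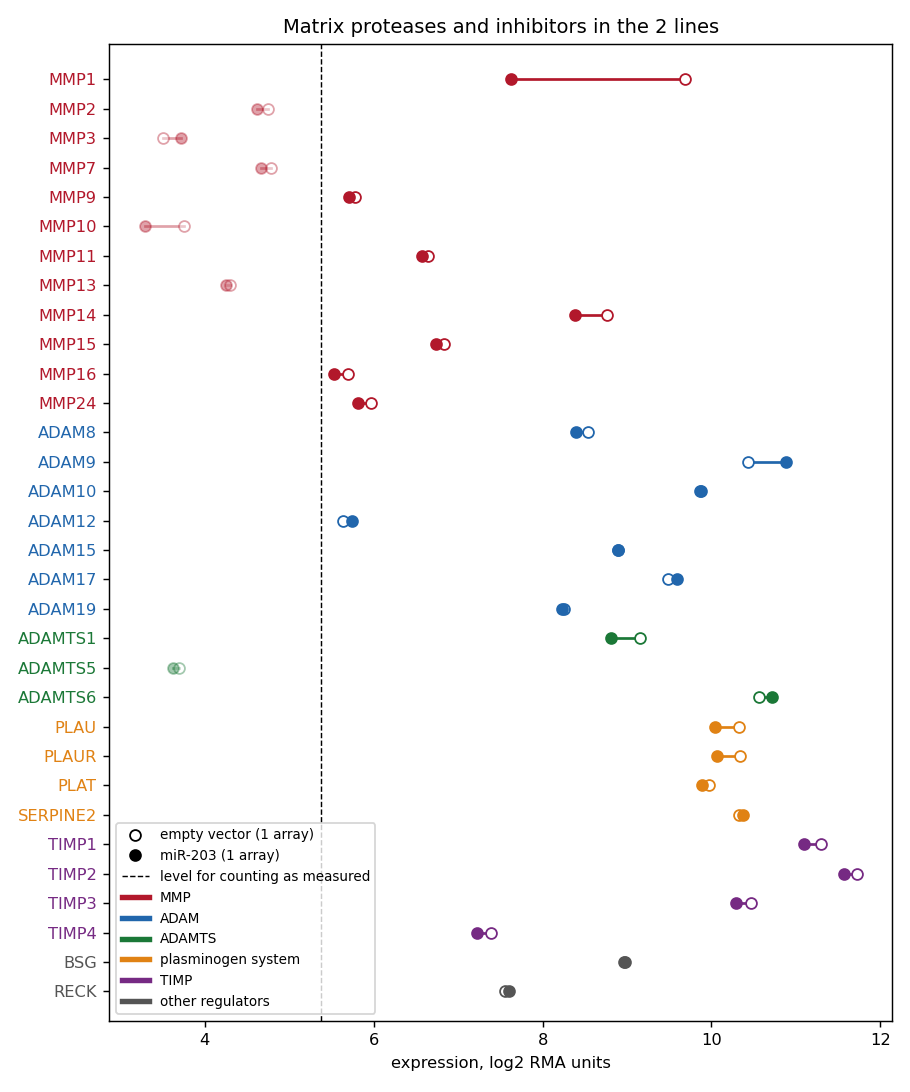
Expression in log2 RMA units of the 32 genes with a probe set, with the empty-vector array as open points and the miR-203 array as filled points, joined by a line and coloured by family; the 6 pale genes did not reach 5.37 (dashed line) on either array. MMP1 has the longest line, from 9.69 to 7.62, and levels of different genes should not be compared because probe sets differ in response.

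**Figure D2:**
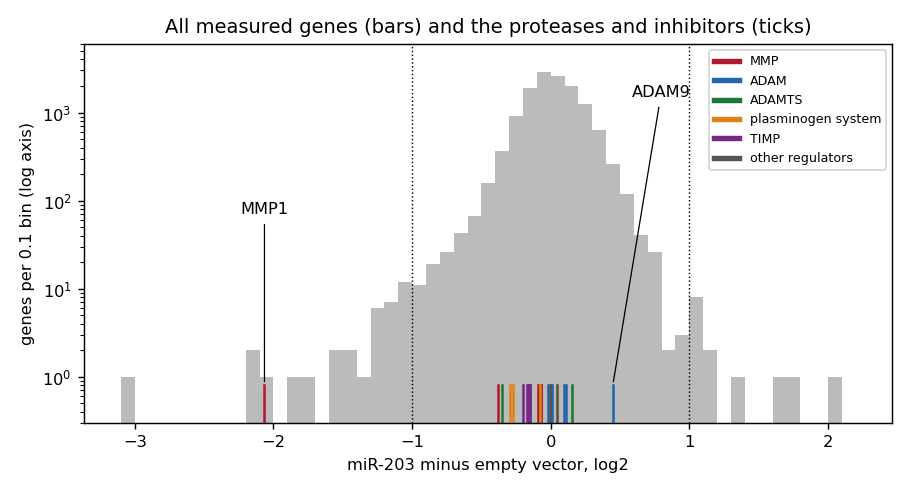
Histogram of the log2 difference (miR-203 minus empty vector) over 13311 measured genes, in bins of 0.1 with a log count axis, and the 26 measured proteases and inhibitors as coloured ticks; dotted lines mark 2-fold. MMP1 stands at -2.07 and the other ticks lie between -0.38 and 0.45.

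Several genes of the MMP family, among them collagenases, stromelysins and matrilysin, sit side by side on chromosome 11. In RefSeq, 9 protein-coding genes run there in the order MMP7, MMP20, MMP27, MMP8, MMP10, MMP1, MMP3, MMP12 and MMP13. MMP1 was the measured gene among these 9. Its neighbours MMP10 (stromelysin-2) and MMP3 (stromelysin-1) read 3.75 and 3.50 with the empty vector and 3.29 and 3.71 with miR-203, under the level on both arrays and with opposite signs. MMP7, or matrilysin, read 4.78 and 4.66, and MMP13, or collagenase-3, 4.29 and 4.25. At such levels the array does not show whether these messages differed.

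**Figure D3:**
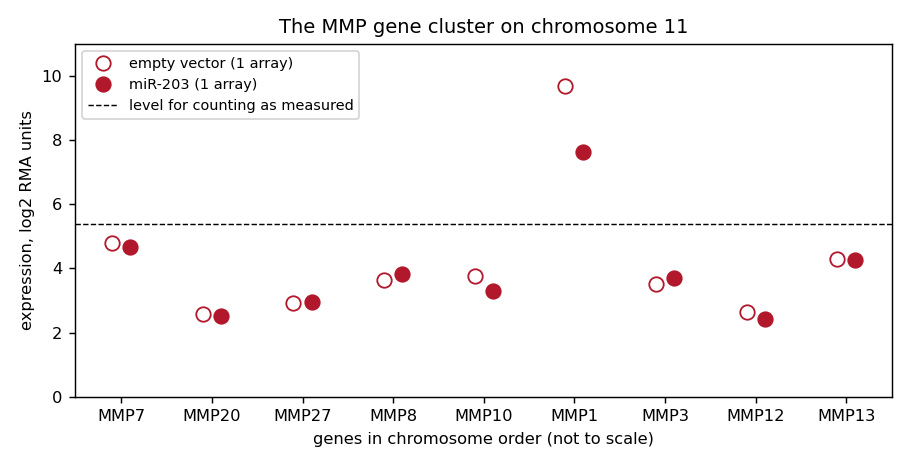
Expression in log2 RMA units of the 9 MMP genes of the chromosome 11 cluster, in chromosome order and not to scale, on the empty-vector array (open) and the miR-203 array (filled), 1 array each. MMP1 is above the dashed level of 5.37, at 9.69 and 7.62, and the other 8 genes are under it.

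All 7 measured MMPs were lower, from -2.07 to -0.067, with a median of -0.16. MMP14 (MT1-MMP), a membrane-anchored collagenase that also activates pro-MMP2, read 8.76 with the empty vector and 8.39 with miR-203. The difference was -0.38, where the middle 95% of its bin spanned -0.35 to 0.47. Each of its 4 probe sets was lower, from -0.58 to -0.25, so that the direction did not depend on the probe set. MMP16 (MT3-MMP), of the same membrane type, read 5.69 and 5.53, a difference of -0.16. Another of its probe sets was at -0.34, but it read 5.71 and 5.36 and so passed through the empty-vector array alone. MMP24 (MT5-MMP) read 5.97 and 5.82 by 1 probe set. MMP14 was thus lower by all 4 probe sets and MMP16 by the 2 that passed. MMP24 rests on 1 probe set, and its other, under the level on both arrays, was at 0.10. The 2 probe sets of MMP15 (MT2-MMP) disagreed in sign, the brighter at -0.092 and the dimmer at 0.14.

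The gelatinase MMP9 read 5.77 and 5.71, a difference of -0.067, close to the level for a measured gene. MMP16 and ADAM12 were as close, at 5.69 and 5.74 by their higher values, while MMP7 and MMP2, at 4.78 and 4.75, were the nearest genes that did not pass. MMP2 is the other gelatinase and the main substrate of MMP14 among the proenzymes. MMP11 (stromelysin-3) had 3 probe sets above the level with mixed signs, -0.069 by the brightest and 0.10 and 0.21 by the others. MMP9, MMP11 and MMP15 thus showed no direction that held over probe sets, or had 1 probe set only.

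The ADAM proteases of the list, which shed membrane proteins, did not share the direction of its MMPs: 4 of 7 were above 0, 2 below and 1 at 0, with a median of 0.011. ADAM9, a widely expressed sheddase, had the largest positive difference of the whole list. Its brightest probe set read 10.43 with the empty vector and 10.88 with miR-203, a difference of 0.45 or 1.36-fold, outside the -0.30 to 0.39 of its bin. The other 2 probe sets of ADAM9 gave 0.046 and 0.12, so all 3 had the same sign but a different size. ADAM17 (TACE), the sheddase of TNF and of several EGF receptor ligands, read 9.48 and 9.60, and its 3 probe sets ran from 0.036 to 0.11. ADAM10, the Notch and cadherin sheddase, read 9.87 and 9.88.

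Of the remaining ADAMs, ADAM15 read 8.90 on both arrays by its brightest probe set and was at -0.26 by the other. ADAM8 was at -0.15 and 0.18 by 2 probe sets, and ADAM19 at -0.017 and 0.098. ADAM12 read 5.64 and 5.74 by the 1 probe set of its 5 that passed. None of these 4 genes had a direction backed by more than 1 probe set. ADAM17 and ADAM10 depend on membrane partners, the iRhoms and the TspanC8 tetraspanins, and of these 8 measured genes 4 were below 0 and 4 above, with a median of -0.0050. The whole list of 10 partner genes, with FRMD8 and PACS2, had a median of -0.024 and a range from -0.16 to 0.39.

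ADAMTS1, a secreted protease that cleaves versican and aggrecan, was lower by both of its probe sets. The brighter read 9.16 with the empty vector and 8.80 with miR-203, a difference of -0.35 at the edge of the -0.35 to 0.47 of its bin. The dimmer read 6.76 and 5.96, a difference of -0.80. Both are _s_at probe sets, so ADAMTS1 had no value without that kind. ADAMTS6 went the other way, at 10.56 and 10.72 by its brightest probe set, and its 2 probe sets above the level gave 0.061 and 0.15. ADAMTS5, the main aggrecanase of cartilage, read 3.69 and 3.62 and was not measured.

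**Figure D4:**
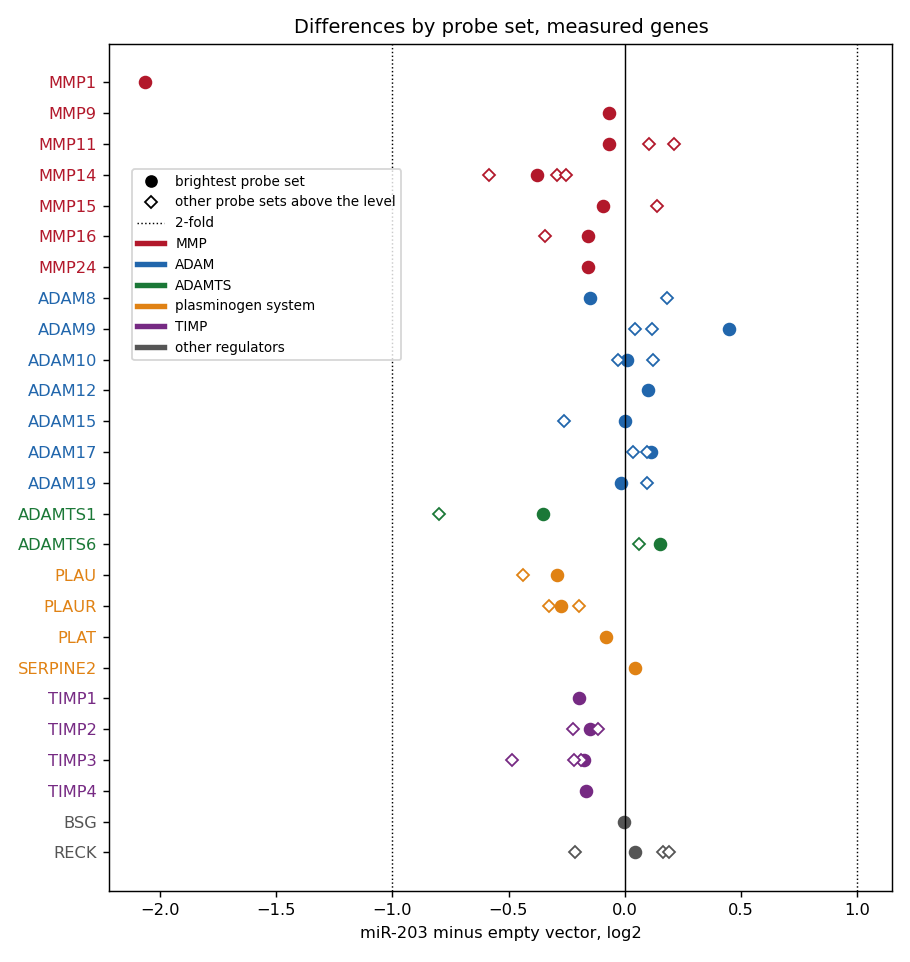
Log2 difference (miR-203 minus empty vector) of each probe set above the level on at least 1 array, for the 26 measured genes coloured by family. The brightest probe set of a gene is a filled circle and the others are open diamonds, and dotted lines mark 2-fold. The 9 TIMP probe sets and the 6 of PLAU, PLAUR and PLAT lie below 0, while ADAM probe sets lie on both sides.

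Urokinase and its receptor were lower together, and by about the same amount when read by their brightest probe sets. PLAU, which encodes urokinase, read 10.33 with the empty vector and 10.04 with miR-203, a difference of -0.29 or 1.22-fold. Its other probe set gave -0.44, and both are of the _s_at kind, so PLAU had no value without that kind. PLAUR, the receptor that holds urokinase at the cell surface, read 10.34 and 10.07, a difference of -0.27 or 1.21-fold, and its 3 probe sets ran from -0.33 to -0.20. Both genes lay just inside the -0.30 to 0.39 of their bin. By the brightest probe sets the ratio of PLAU to PLAUR differed between the arrays by -0.019, which is a comparison within each array and is free of array-wide scaling. PLAT, or tissue plasminogen activator, read 9.97 and 9.89. SERPINE2 (protease nexin-1), an inhibitor of urokinase and thrombin, read 10.33 and 10.38, so that the ratio of PLAU to SERPINE2 differed by -0.34.

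The wider plasminogen system did not share this direction. Of 15 further genes listed, 10 were measured, 5 below 0 and 5 above, with a median of 0.016. SERPINA5, among those above 0, passed through the miR-203 array alone. With values under the level raised to it, the counts and the median were the same. Thrombomodulin (THBD) was lowest at -0.37, and the plasminogen-binding protein S100A10 read 13.17 and 13.44, a difference of 0.27.

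Each of the 4 TIMPs was lower, within a narrow range from -0.20 to -0.15. TIMP1, the secreted inhibitor of most MMPs, read 11.30 with the empty vector and 11.10 with miR-203. TIMP2, which inhibits MMPs and also bridges MMP14 to pro-MMP2, read 11.72 and 11.57, and its 3 probe sets ran from -0.22 to -0.11. TIMP3, the matrix-bound inhibitor that also blocks ADAM17 and ADAMTS enzymes, read 10.47 and 10.29, with 4 probe sets from -0.49 to -0.17. All 4 are of the _s_at kind. TIMP4 read 7.39 and 7.22 by 1 probe set. All 9 TIMP probe sets above the level were below 0, and all 4 genes lay inside the middle 95% of their bins. Over all measured genes 46.6% of such probe sets were below 0. Probe sets of a gene read the same RNA and are not replicates.

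RECK, a membrane-anchored inhibitor of several MMPs, had probe sets of both signs. The brightest, an _x_at probe set, read 7.56 and 7.61, and the 4 above the level ran from -0.21 to 0.19. BSG (EMMPRIN or CD147), a surface protein that induces MMPs in neighbouring cells, read 8.97 on both arrays, a difference of -0.0047.

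Ratios within an array show where a protease and an inhibitor differed by unequal amounts. The ratio of MMP1 to TIMP1 differed by -1.87, or 3.65-fold. For MMP14 and TIMP2 the ratio differed by -0.23, and for ADAMTS1 and TIMP3 by -0.18. All these ratios were read by the brightest probe sets. The probe sets of ADAMTS1 ran from -0.80 to -0.35 and those of TIMP3 from -0.49 to -0.17. The sign of the ratio of ADAMTS1 to TIMP3 thus depended on the probe sets taken. ADAM17 against TIMP3 went the other way, at 0.29. No spread of such ratios was measured.

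Agreement between probe sets was a further description of the same values. Of the measured genes, 17 had several probe sets above the level on at least 1 array. In 7 of them every probe set was lower, in 3 every probe set was higher, and 7 were mixed. The mixed genes include ADAM15, whose probe sets were at 0 and -0.26. The shares, 41.2%, 17.6% and 41.2%, compare with 24.2%, 28.5% and 47.3% over 6285 such genes of the series. A gene lower by every probe set is also lower by its brightest, so these shares are not separate from the counts by sign. The 7 genes lower throughout were MMP14, MMP16, ADAMTS1, PLAU, PLAUR, TIMP2 and TIMP3, and the 3 higher throughout were ADAM9, ADAM17 and ADAMTS6. For MMP16 the dimmer of the probe sets counted passed through the empty-vector array alone.

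Promoters of several of these proteases are textbook targets of AP-1, the dimer of FOS and JUN proteins, and of ETS factors, so the stretches before the start sites were read from RefSeq (GRCh38.p14). Windows of 300 bases, from 250 before to 50 after the start, were matched for 21 of the 32 genes, with 24 windows in all. A gene counted when any of its windows held the motif, while the percentages given are of single windows, so the units differ. MMP1, MMP2, MMP3, MMP9, MMP13, MMP16, ADAM9, ADAMTS1, ADAMTS5, PLAT and TIMP2 were not among the 21 and were not searched. The AP-1 motif TGANTCA, which reads the same on both strands, was found in MMP7, MMP10 and PLAUR, 3 of 21 genes, and in 7.71% of 35116 windows. An ETS-type motif, AGGAAG on either strand, was found in 9 of 21 genes and 33.6% of windows. TATAAA on either strand was found in 3 genes and 11.5% of windows, and the GC box GGGCGG on either strand in 16 genes and 45.0% of windows. The stretches printed here end at the base before the start and show 2 genes of the MMP1 cluster (MMP10, next to MMP1, and MMP7, at the end of the cluster), the urokinase receptor and TIMP1. Capitals mark AP-1 and TATAAA matches in MMP7 and MMP10, AP-1 and ETS-type matches in PLAUR, and ETS-type and GC box matches in TIMP1, with no overlap between them. MMP7 lies at chr11:102530748-102530857, MMP10 at chr11:102780629-102780738 and PLAUR at chr19:43670170-43670369, all on the minus strand, and TIMP1 at chrX:47582316-47582435 on the plus strand.

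MMP7: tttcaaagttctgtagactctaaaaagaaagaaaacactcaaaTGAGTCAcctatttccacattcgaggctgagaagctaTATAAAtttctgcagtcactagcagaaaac
MMP10: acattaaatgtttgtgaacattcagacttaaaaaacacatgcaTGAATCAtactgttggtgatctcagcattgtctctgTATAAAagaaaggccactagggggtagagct
PLAUR: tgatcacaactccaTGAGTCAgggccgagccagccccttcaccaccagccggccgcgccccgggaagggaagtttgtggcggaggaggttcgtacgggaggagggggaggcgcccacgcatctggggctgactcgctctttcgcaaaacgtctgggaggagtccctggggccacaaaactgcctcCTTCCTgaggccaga
TIMP1: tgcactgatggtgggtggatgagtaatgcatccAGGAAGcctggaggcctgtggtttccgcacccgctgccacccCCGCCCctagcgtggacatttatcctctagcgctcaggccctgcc

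In MMP7 and MMP10 the AP-1 motif began 67 bases before the start, with TATAAA at 30 and 31 bases. In PLAUR the AP-1 motif began 186 bases before the start. A match of letters is not evidence of binding.

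The regulators themselves were slightly lower. Of 15 factors known to act on protease promoters, all measured, 14 were below 0, where 45.8% of all genes were. In this list 0 differed by 1.5-fold, near the shares of all genes, 1.08% lower and 0.721% higher. Their median was -0.16 and their range -0.37 to 0.030. JUN read 11.23 with the empty vector and 11.03 with miR-203, JUNB 7.78 and 7.57, and ETS2 8.01 and 7.75. The osteoblast factor RUNX2, which acts on MMP13 in bone, was lowest at -0.37 by its brighter probe set. In 4 of the 14, RUNX2, ETS2, FOSL2 and ETS1, another probe set had the opposite sign, up to 0.029, 0.050, 0.080 and 0.039. Many of these factors respond to the same signals, so the 14 are not separate observations.

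The related lists, with regulators, partners and activators included, held no gene at 2-fold in either direction (0 of 80 measured of 122 listed). Over all measured genes 0.27% were at least 2-fold lower and 0.105% at least 2-fold higher, so 0 of 80 is near that share. Of 11 further MMPs 4 were measured, 2 below 0 and 2 above, at -0.26 to 0.066. Of 14 further ADAMs 8 were measured, 6 of them below 0, with a median of -0.17. ADAM30 and ADAM21 passed through the empty-vector array alone, and with values under the level raised to it the median of these ADAMs was -0.095. The further MMPs and ADAMs thus did not repeat the contrast between the measured MMPs and ADAMs of the list. Among 22 further ADAMTS and ADAMTS-like genes 13 were measured, with a median of 0. ADAMTS3, a procollagen N-propeptidase, read 5.60 and 4.96, which is 1.56-fold lower, but the miR-203 value lay under the level, and with that value raised to the level the difference was -0.23. ADAMTS10 lay on the other side, at 5.49 and 6.07, a difference of 0.58, under 1.5-fold and the largest positive difference among the 80 genes. The proenzyme activators, such as the convertase FURIN that cuts MMP14 and ADAM proforms, were evenly split, 4 below 0 and 4 above with a median of 0.028. Further protease inhibitors, such as TFPI2, had a median of -0.020 over 9 genes. Among the activators KLK5 passed through the miR-203 array alone, and among the inhibitors A2M through the empty-vector array alone. With values under the level raised to it, the counts and medians of both lists were the same. Of 10 astacin and surface proteases 3 were measured, and BMP1, a procollagen C-proteinase, was highest at 0.48, with 5 probe sets from -0.32 to 0.48.

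**Figure D5:**
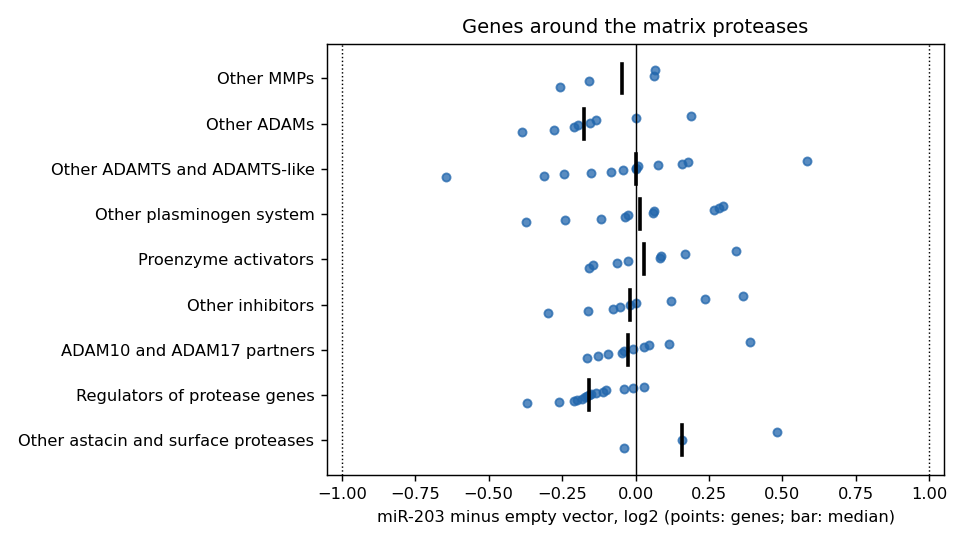
Log2 difference (miR-203 minus empty vector) of the 80 measured genes of 9 related lists, each point a gene and each black bar the median of its list; dotted lines mark 2-fold. Points spread over both sides of 0 in most lists, and 14 of the 15 regulators lie below it.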

How the data were processed

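Per the submitters' processing notes, the authors made the deposited log2 values with RMA, which corrects background, forces arrays to a common distribution and summarises each probe set; its version was not given in the sources used. That the scale is log2 follows from the range of the values, 1.37 to 14.23. RMA would hide a shift common to all messages. Of 54675 probe sets, 41091 had 1 gene symbol in the platform annotation, 1801 had several and were not named, 11721 were not listed and 62 were controls. Symbols were updated through gene identifiers to RefSeq.

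Per gene the probe set with the highest mean was kept. Values were compared in Python 3.11.15 with pandas 2.3.3 and statsmodels 0.14.6. The steps were run on simulated data with planted differences well past 2-fold, so smaller differences were not covered. No test was made, with 1 array per group, and the number of arrays limits the precision. All listed genes are accounted for, measured genes are named, and from each related list up to 3 genes past 1.5-fold were to be named. Genes given at the ends of a list's range or as examples (THBD, S100A10, JUN, JUNB, ETS2, ETS1, FOSL2, RUNX2, BMP1, ADAMTS10, ADAM21, ADAM30, SERPINA5, KLK5, A2M, FRMD8, PACS2, FURIN, TFPI2) were chosen after their values were seen. The genes and lists were chosen with earlier results of these data known. Alternatives were other filters (none, or the 75th percentile), probe set rules, centring, removal of a loess trend (span 0.3), a floor and other thresholds.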

Additional observations from a re-analysis of the deposited data

How the results depend on the processing

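MMP1 was at -2.09 to -2.06 under each of the 7 alternatives of filter, probe set rule, centring, trend and floor, and stayed the 1 gene past 2-fold, 1.5-fold and 3-fold, with 0 higher. The count below 0, chosen after seeing the data, was 18 of 26. It was 9 of 18 without _x_at and _s_at probe sets, with 8 of the 26 genes no longer measured. The count was 13 of 20 with the filter at the 75th percentile, 14 of 23 with the median over probe sets and 23 of 32 with no filter. Under centring, trend removal and the floor it was 18 to 20 of 26. The median of -0.086 ran from -0.11 to -0.0083, and the mean was -0.15. Signs were opposite for 5 genes with the median over probe sets (ADAM8, ADAM19, MMP11, MMP15, SERPINE2), for 3 without _x_at and _s_at probe sets (MMP11, MMP15, RECK) and for ADAM10 without the loess trend. By the median over its probe sets ADAM9 was at 0.046. Leaving out a replicate was impossible. No paired analysis was possible because there was 1 array per line.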
